A study of Homo sapiens
Mus musculus and Homo sapiens and Mus musculus with 7 samples.

Results

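The high-mobility-group proteins and DEK are small, abundant proteins of chromatin, and 10 of the 58721 human genes in these data encode the members described here: HMGB1, HMGB2, HMGB3, HMGN1, HMGN2, HMGN3, HMGN4, HMGA1, HMGA2 and DEK. They were taken by gene symbol, matched to the deposited identifiers through GENCODE release 29. Their mRNAs were followed in HEK293 cells, a human embryonic kidney line, which expressed HA-tagged RPL22, a protein of the large ribosomal subunit, and grew together with mouse NIH3T3 fibroblasts, which expressed V5-tagged RPL22. An immunoprecipitation (IP) with an antibody against a tag is meant to recover the ribosomes of one line and the RNA they carry. Of 7 libraries, 2 were HA IPs, 2 were V5 IPs, 1 was total RNA of the co-culture (the input), 1 was HEK293 grown alone and 1 was NIH3T3 grown alone. Each antibody had a first and a second IP, which are replicate numbers and not a known order of work. Per the labels, the first HA and first V5 IPs came from the same lysate, and the second IPs came from lysates with other numbers. The sources used here do not say how these lysates relate or whether the lines grown alone carried tags.

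HMGB proteins bind DNA through HMG boxes, which enter the minor groove and bend the helix. HMGN proteins bind directly to nucleosomes and counteract the compaction brought by linker histones. HMGA proteins bind AT-rich DNA through short AT hooks, and DEK is a DNA-binding protein and histone chaperone known from its fusion with NUP214 in acute myeloid leukaemia. Many of these proteins are abundant in embryonic and dividing cells.

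Human genes held 729698 and 1213213 counts in the first HA IP and the second HA IP (82.1 and 77.6% of each library), 128915 and 81798 in the V5 IPs (6.25 and 4.48%), 280163 in the input (26.9%) and 826673 in HEK293 (99.99%). In NIH3T3 grown alone, 0 of 1999078 counts lay on each of the 10 genes, and 3 counts were set as the floor for each. Levels below are CPM, counts per 1000000 human counts of a library, so that the mouse share does not enter them. In bulk RNA, fewer cells of a type and less RNA per cell cannot be told apart. The 7 HEK293 markers summed to 248 and 188 CPM (HA), 85.3 and 73.4 CPM (V5), 182 CPM in the input and 305 CPM in HEK293. Most of each sum came from KRT18 and NEFL, with 195 and 99.2 CPM in HEK293. In HEK293 itself KRT8 had 7 counts, INA and PAX2 had 1 each and GATA3 had 0. NEFM was at 0 in all 6. The 5 human fibroblast markers had 0 to 2 counts per library and the 2 blood markers had 0. Intervals on single levels and ratios are exact 95% intervals and cover counting error alone, as reads had no molecular identifiers. All p-values rest on how far the first and second IP of an antibody lie apart, which may be a technical difference. In the edgeR fit of all 6 libraries this spread was pooled over genes. The gap between a gene's own IPs hardly enters its SE, interval or p-value there.

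Several of these genes have near-identical copies elsewhere in the genome, and the sequences show how close the copies are. The first 90 coding bases of HMGN2 are given with those of HMGN4, a separate gene that resembles a retrotransposed HMGN2, and of the pair of HMGN2 pseudogenes with the most counts. Those of HMGB1 follow with its most counted pseudogene. Sequences are GENCODE 29 transcripts (hg38), written 5′ to 3′ in the direction of the gene. Capitals mark bases that differ from the parent gene above.
HMGN2: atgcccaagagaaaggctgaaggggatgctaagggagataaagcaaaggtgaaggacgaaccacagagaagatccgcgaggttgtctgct
HMGN4: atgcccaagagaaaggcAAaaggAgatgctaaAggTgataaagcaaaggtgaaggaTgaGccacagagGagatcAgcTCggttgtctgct
HMGN2P5: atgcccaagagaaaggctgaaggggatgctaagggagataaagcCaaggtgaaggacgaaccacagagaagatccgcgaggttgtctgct
HMGN2P3: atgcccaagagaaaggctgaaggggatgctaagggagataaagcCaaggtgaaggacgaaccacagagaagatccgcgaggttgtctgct
HMGB1: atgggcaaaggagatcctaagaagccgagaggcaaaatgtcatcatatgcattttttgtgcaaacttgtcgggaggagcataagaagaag
HMGB1P5: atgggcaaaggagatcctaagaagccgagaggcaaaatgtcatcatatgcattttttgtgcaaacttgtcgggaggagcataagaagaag

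The HMGN2 stretch lies at chr1:26472613-26473732 on the plus strand and spans 2 introns, while the HMGN4 stretch lies in 1 piece at chr6:26545207-26545296 on the plus strand and differs at 11 of 90 bases (87.8% identity). HMGN2P5, at chr15:29730713-29730802 on the plus strand, and HMGN2P3, at chr16:26032722-26032811 on the minus strand, each differ from HMGN2 at 1 base. HMGB1, at chr13:30463591-30463680 on the minus strand, and HMGB1P5, at chr3:22381819-22381908 on the plus strand, differ at 0 of 90 bases. Over whole transcripts, 10.9% of the 50-base words of HMGB1 and 13.9% of those of HMGN2 also occur in transcripts of other genes, against 0% for HMGN4 and DEK. HMGN4 thus shares no word of that length with HMGN2, whereas a read in the stretch shown of HMGB1 matches its pseudogene as well.

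The 10 genes together held 0.515 and 0.482% of human counts in the first HA IP and the second, 0.311 and 0.386% in the V5 IPs, 0.236% in the input and 0.490% in HEK293. Between genes, levels were compared per kb of exonic length. HMGN2 was the highest in every group, with 800.2 ± 185 CPM per kb in the HA IPs (SD, n = 2). HMGN3 followed with 339 ± 81.7, HMGB2 with 279 ± 35.6, HMGB1 with 111 ± 28.8, HMGB3 with 89.9 ± 6.51 and DEK with 85.9 ± 56.8 CPM per kb. HMGN1 averaged 37.0 ± 40.4, HMGN4 30.6 ± 17.6 and HMGA1 18.7 ± 0.968 CPM per kb, and HMGA2 was last. Only the steps from HMGN2 to HMGN3, from HMGB2 to HMGB1 and from HMGA1 to HMGA2 separated both HA IPs of neighbours in this order, and the other neighbours overlapped. HMGN2, HMGN3, HMGB2, HMGB1 and HMGB3 kept this order in HEK293, with 917 CPM per kb for HMGN2 and 94.8 CPM per kb for HMGB3. In the input HMGN2 stood at 679 CPM per kb and HMGB1 at 22.6 CPM per kb. HMGN2 made up 32.6 and 48.4% of the counts of the 10 genes in the first HA IP and the second, 31.7 and 42.1% in the V5 IPs, 72.1% in the input and 46.9% in HEK293.

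**Figure D1:**
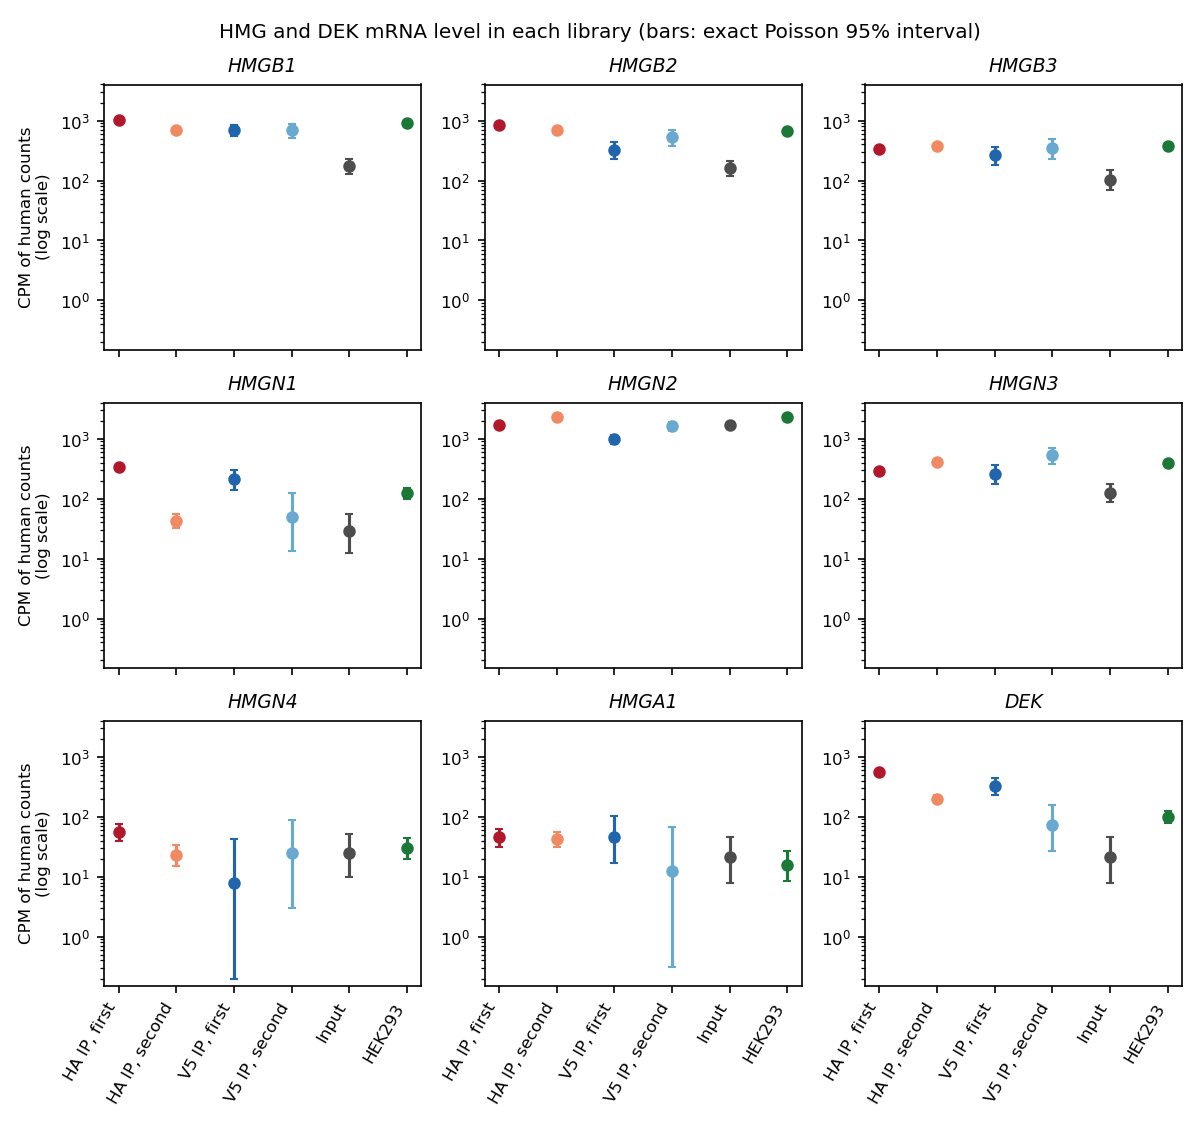
Level of 9 of the genes in each of 6 libraries, as CPM of human counts on a log axis, with points for single libraries and bars for exact Poisson 95% intervals; HMGA2, with 4 counts in all, is not drawn. The input (black) is the lowest library for HMGB1, HMGB2, HMGB3, HMGN1, HMGN3 and DEK, while HMGN2 has 1703 CPM there. For HMGN1 and DEK the bar of the input overlaps that of the second V5 IP. The second IPs of HMGN1 and DEK lie below the first.

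The HMGB mRNAs shared a pattern in which all 4 IPs and HEK293 lay above the input. HMGB1 (ENSG00000189403.14; hg38 chromosome 13, 30456704 to 30617597, minus strand), which bends DNA in the nucleus and acts as a danger signal when released, had 1014 and 699.8 CPM in the first HA IP and the second, 698 and 685 CPM in the V5 IPs, 175 CPM in the input and 898 CPM in HEK293. HMGB2 (ENSG00000164104.11; chromosome 4, 173331695 to 173335125, minus strand), the close relative found mainly in dividing cells, had 843 and 703 CPM in the HA IPs, 318 and 526 CPM in the V5 IPs, 161 CPM in the input and 663 CPM in HEK293. HMGB3 (ENSG00000029993.14; chromosome X, 150980509 to 150990775, plus strand), the X-linked member, had 338 and 375 CPM in the HA IPs, 264 and 342 CPM in the V5 IPs, 104 CPM in the input and 376 CPM in HEK293. The HA and V5 IPs overlapped for HMGB3 and nearly touched for HMGB1, while both HA IPs of HMGB2 lay above both of its V5 IPs. The counts behind the input values were 49 for HMGB1, 45 for HMGB2 and 29 for HMGB3.

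The HMGN mRNAs did not move as one family. HMGN2 (ENSG00000198830.10; chromosome 1, 26472450 to 26475972, plus strand), a nucleosome-binding protein of nearly all cells, had 1679 and 2337 CPM in the HA IPs, 985 and 1626 CPM in the V5 IPs, 1703 CPM in the input and 2299.6 CPM in HEK293. Its input level lay between the HA IPs, unlike that of any HMGB gene. HMGN1 (ENSG00000205581.10; chromosome 21, 39342315 to 39349647, minus strand), the sister protein of HMGN2, had 334 and 42.9 CPM in the HA IPs, 209 and 48.9 CPM in the V5 IPs, 28.6 CPM in the input and 122 CPM in HEK293. The HA IPs of HMGN1 lay on either side of HEK293 and enclosed both V5 IPs. HMGN3 (ENSG00000118418.14; chromosome 6, 79201245 to 79234738, minus strand), a relative first studied as a partner of the thyroid hormone receptor, had 285 and 402 CPM in the HA IPs, 256 and 526 CPM in the V5 IPs, 125 CPM in the input and 396 CPM in HEK293. The V5 IPs of HMGN3 enclosed the HA IPs. HMGN3-AS1, on the other strand, covers 19.0% of its exonic bases. Reads in that part cannot be told apart, since counting used no strand. HMGN4 (ENSG00000182952.4; chromosome 6, 26538405 to 26546254, plus strand) had 40 and 28 counts in the HA pair, 1 and 2 in the V5 pair, 7 in the input and 25 in HEK293, which is 54.8 and 23.1 CPM, 7.76 and 24.5 CPM, 25.0 CPM and 30.2 CPM. At these counts the V5 IPs, the input and HEK293 overlap in their counting intervals.

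The HMGA mRNAs were scarce. HMGA1 (ENSG00000137309.19; chromosome 6, 34236873 to 34246231, plus strand), the AT-hook protein high in many tumours, had 45.2 and 42.0 CPM in the HA IPs, 46.5 and 12.2 CPM in the V5 IPs, 21.4 CPM in the input and 15.7 CPM in HEK293. The HA IPs lay above the input and HEK293, and the V5 IPs, with 6 and 1 counts, lay on either side of them. HMGA2 (ENSG00000149948.13; chromosome 12, 65824131 to 65966295, plus strand), an embryonic AT-hook protein whose mRNA is a known target of let-7 microRNAs, had 4 counts in the first HA IP (5.48 CPM, interval 1.49 to 14.0) and 0 counts in the other 5 libraries. The intervals at a count of 0 reach 3.04 CPM in the second HA IP, 28.6 and 45.1 CPM in the V5 IPs, 13.2 CPM in the input and 4.46 CPM in HEK293. HMGA2 did not pass the filter on low counts, so tests covered 9 of the 10 genes. AC090673.1 covers 2.49% of its exonic bases.

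DEK (ENSG00000124795.15; chromosome 6, 18223868 to 18264823, minus strand) had 549.5 and 199 CPM in the first HA IP and the second, 326 and 73.4 CPM in the V5 IPs, 21.4 CPM in the input and 100.4 CPM in HEK293. Both HA IPs lay above the input and above HEK293, and the V5 IPs lay above the input and on either side of HEK293. The counts were 401 and 242 in the HA pair, 42 and 6 in the V5 pair, 6 in the input and 83 in HEK293. The value in the input thus has a counting interval of 7.86 to 46.6 CPM. That of the second V5 IP, 26.9 to 160 CPM, overlaps it and includes the HEK293 level. The place of the second V5 IP against the input and HEK293 is therefore not settled.

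The first test asked which human mRNAs differed between HA-tagged ribosomes and total RNA of the co-culture, with 1 input library that is not known to match the lysate of the second HA IP. DEK rose in the HA IPs, by 3.85 on the log2 scale (SE 0.95, 95% interval 1.98 to 5.71; edgeR quasi-likelihood test, Benjamini-Hochberg adjusted p = 0.0136 over 6244 human genes). It was the only called gene among the 9 that passed the filter, where 39 of 6244 genes (0.625%) were called and 12 of them (0.192%) were higher. With total human counts as scaling, the split of called genes was 65 higher and 39 lower in place of 12 higher and 27 lower. The call for DEK was lost without the first HA IP (log2 difference 3.16, edgeR adjusted p = 0.644) and after removal of the trend with GC content (2.78, SE 0.90, edgeR adjusted p = 0.304), and it was not made when the filter asked for 50 counts in 2 libraries (3.73, edgeR adjusted p = 0.117).

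The other 8 genes did not pass in HA against input. In simulated data for this comparison, only 5.97% of genes changed by 4-fold were called, so an absent call does not show equal levels. HMGN1 had a log2 difference of 2.38 (SE 0.98, edgeR adjusted p = 0.382), which was 0.53 when the first HA IP was left out and 3.12 when the second was. HMGB1 had one of 2.08 (SE 0.65, edgeR adjusted p = 0.128) and HMGB2 one of 2.07 (SE 0.67, edgeR adjusted p = 0.161). The call of HMGB1 and HMGB2 depends on the setting, as both passed with total human counts as scaling (edgeR adjusted p = 0.00120 for HMGB1 and 0.00470 for HMGB2) and with DESeq2's Wald test (adjusted p = 0.0253 for HMGB1 and 0.0495 for HMGB2). HMGB3 stood at 1.62 (SE 0.73), HMGN3 at 1.32 (SE 0.70), HMGA1 at 0.84 (SE 1.34) and HMGN4 at 0.38 (SE 1.32). HMGN2 stood at 0.09 (SE 0.51), with an interval of -0.91 to 1.10, and its value changed sign in 6 of 14 alternatives, down to -0.90 with the GC trend removed (SE 0.46). All 9 fitted values were above 0 in a comparison where 61.4% of genes were and where the median gene stood at 0.38. The median of the 9 genes was 1.62.

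Against HEK293 grown alone, the HA IPs gave no call among the 9 genes by edgeR, where 23 of 6244 genes (0.368%) were called, 0.0480% of all as higher, and DESeq2's Wald test also called 0 of the 9. At an unadjusted p under 0.05, 1 of the 9 and 239 of 6244 genes passed. That gene was DEK, with a log2 difference of 1.81 (SE 0.76, 95% interval 0.32 to 3.31; edgeR adjusted p = 1.00). The HMGB family stood close to 0, with HMGB1 at -0.09 (interval -1.20 to 1.02), HMGB2 at 0.21 (-0.94 to 1.37) and HMGB3 at -0.06 (-1.32 to 1.20). HMGN2 and HMGN3 both stood at -0.16, HMGN4 at 0.29, HMGN1 at 0.48 and HMGA1 at 1.46 (SE 1.28). Without the first HA IP, HMGN1 stood at -1.36. The intervals of HMGB1 and HMGB3 reach past a 2-fold difference in either direction, and that of HMGB2 past a 2-fold higher level. The 2 comparisons above share the HA IPs.

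Human RNA in the V5 IPs, which target mouse ribosomes, was the background for the HA IPs. HA against V5 gave 0 calls among the 9 genes by edgeR and by DESeq2, where 23 of 6244 genes (0.368%) were called by edgeR, 0.0480% of all as higher. At an unadjusted p under 0.05, 2 of the 9 and 697 of all genes passed. They were HMGB2, with a log2 difference of 1.26 (SE 0.51, edgeR adjusted p = 0.313), and HMGN2, with 1.05 (SE 0.43, edgeR adjusted p = 0.325). HMGN2 was called without the first HA IP (1.35, edgeR adjusted p = 0.00763). DEK differed by 1.14 (SE 0.60, edgeR adjusted p = 0.473), HMGB1 by 0.66, HMGB3 by 0.64 and HMGN1 by 0.70, which became -1.13 without the first HA IP. HMGN3 stood at 0.26 (SE 0.54) and was below 0 in 8 of 14 alternatives, down to -0.34 with the filter of 50 counts in 2 libraries, so its direction is not settled. HMGN4 at 1.68 (SE 1.30) and HMGA1 at 0.84 (SE 1.12) rested on 3 and 7 counts in both V5 IPs together. The median of all genes tested stood at 0.37 in HA against V5, where 60.7% of genes lay above 0. With total human counts as scaling that median was 0.003.

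In V5 against input, which shares the input library with HA against input, 0 of the 9 genes were called by edgeR and by DESeq2, where 47 of 6244 genes (0.753%) were called by edgeR. At an unadjusted p under 0.05, 2 of the 9 and 807 of all genes passed. DEK stood at 2.71 (SE 0.94, edgeR adjusted p = 0.167), beside 3.85 in HA against input. HMGB1 stood at 1.42 (SE 0.64, edgeR adjusted p = 0.311), beside 2.08. HMGN1 stood at 1.68 (SE 0.99), HMGN3 at 1.06 (SE 0.71), HMGB3 at 0.98 (SE 0.73) and HMGB2 at 0.81 (SE 0.65). HMGN2 stood at -0.95 (SE 0.50, edgeR adjusted p = 0.406) and HMGN4 at -1.30 (SE 1.58). HMGA1 stood at -0.00 and changed sign in 7 of 12 alternatives, so its direction is undetermined. Its SE of 2.80 was derived from the difference and the test statistic and is unreliable this close to 0. DEK was called without the second V5 IP (3.39, edgeR adjusted p = 0.0312). With total human counts, which put the median gene at 0.53 in place of 0.00, DEK and HMGB1 were called, and the split over all genes was 85 higher and 20 lower in place of 16 higher and 31 lower.

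**Figure D2:**
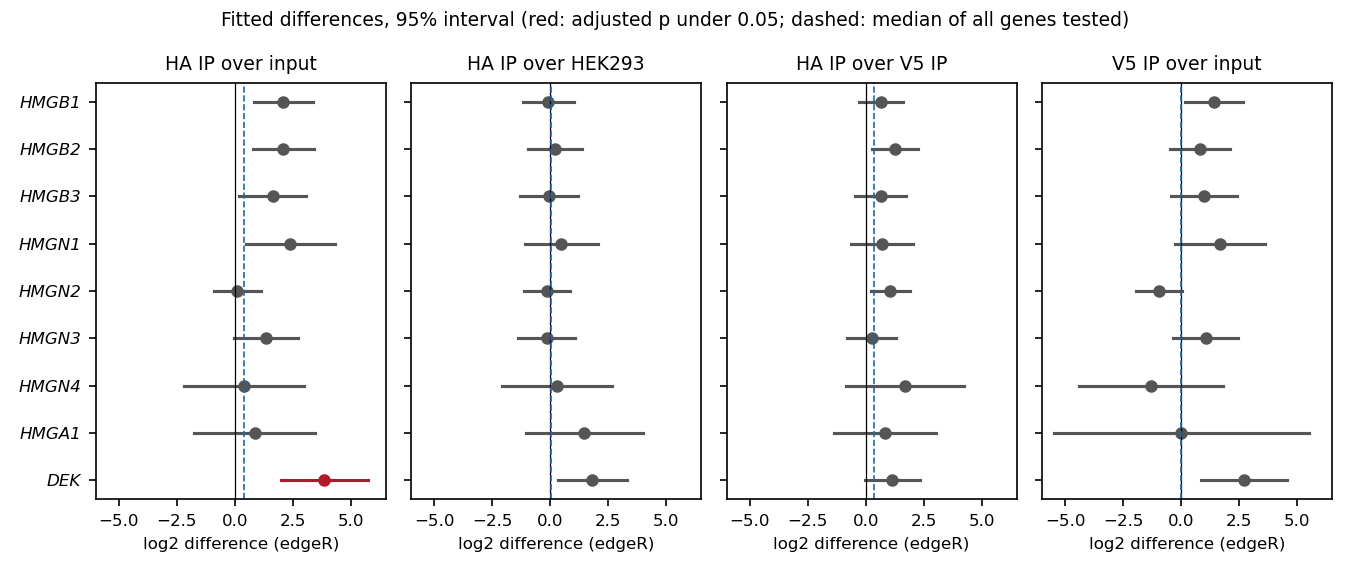
Fitted log2 difference of 9 genes in 4 comparisons (HA over input, HA over HEK293, HA over V5, V5 over input), with 95% intervals of the edgeR fit; red marks an adjusted p under 0.05 and the dashed line is the median of the 6244 genes tested. DEK over input (3.85) is the only red point, and in HA over HEK293 the HMGB genes and HMGN2 lie between -0.16 and 0.21. The interval of HMGA1 in V5 over input is unreliable, as its difference is close to 0.

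The input was also set against HEK293 grown alone, as 1 library against 1 and with no test. Of the 2255 human genes with a mean of at least 50 CPM over the 6 libraries, 7 were among the genes described here, and 6 of those 7 were lower in the input by 2-fold or more, where 30.1% of the 2255 genes were. None was higher by 2-fold or more, where 17.1% were. HMGB1 had 0.195 times its HEK293 level in the input (0.143 to 0.260), HMGB2 0.242 times (0.175 to 0.329), HMGB3 0.275 times (0.181 to 0.403) and HMGN3 0.316 times (0.216 to 0.448). HMGN1 had 0.234 times (0.0982 to 0.478) and DEK 0.213 times (0.0761 to 0.484), resting on 8 and 6 counts in the input. HMGN2 was the exception, with 0.740 times its HEK293 level (0.668 to 0.819).

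Over the same 2255 genes the ratio of input to HEK293 followed the GC content of the transcript, with a Spearman rho of 0.748, against -0.251 for exonic length. These genes share both libraries, and they are not independent replicates. Among the 344 genes under 40% GC, 73.5% were lower in the input by 2-fold or more, and among the 526 genes from 40 to 45% GC, 54.6% were. HMGB1 (37.9% GC) and HMGN1 (38.6%) fall in the lowest range, and DEK (40.4%), HMGN2 (40.5%), HMGN3 (43.5%) and HMGB3 (44.0%) in the next. HMGB2, at 49.8% GC, lies in the range from 45 to 50%, where 29.3% of 382 genes were lower by 2-fold or more. HMGA1 is the one GC-rich member, with 61.3%. The HA over input difference had a rho of -0.657 with GC content, V5 over input -0.574, HA over HEK293 0.322 and HA over V5 0.0394. With the GC trend removed, HA over input was 0.89 for HMGB1 (SE 0.58, edgeR adjusted p = 0.997) and 1.96 for HMGB2 (SE 0.63, edgeR adjusted p = 0.303). It was 1.14 for HMGN1, 0.93 for HMGB3, 0.59 for HMGN3 and -0.90 for HMGN2, and no gene of the 9 passed.

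**Figure D3:**
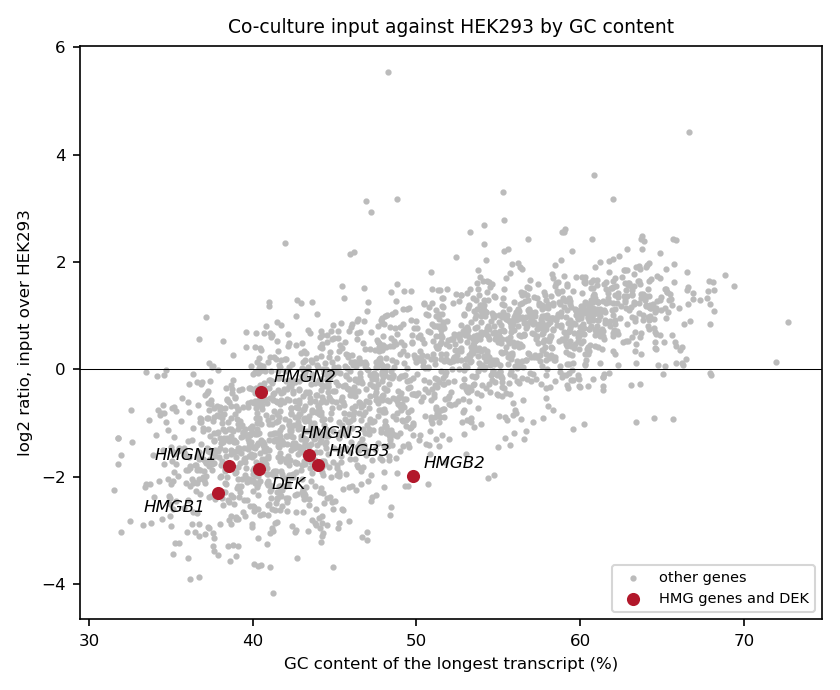
Log2 ratio of input over HEK293 (1 library each, vertical axis) against the GC content of the longest transcript in percent (horizontal axis) for 2255 human genes, with HMGB1, HMGB2, HMGB3, HMGN1, HMGN2, HMGN3 and DEK in red. The ratio climbs with GC content, and 6 of the 7 red points lie at or below -1.59 while HMGN2 lies at -0.43.

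HMGN1 and DEK were lower in the second IP than in the first with both antibodies, again set side by side as 1 library against 1 and with no test. The second HA IP had 0.128 times the HMGN1 level of the first (0.0931 to 0.174), and the second V5 IP had 0.233 times that of the first V5 IP (0.0594 to 0.670), on 4 and 27 counts. For DEK the second HA IP had 0.363 times the level of the first (0.308 to 0.427), and the second V5 IP had 0.225 times (0.0782 to 0.532), on 6 and 42 counts. A level lower by 2-fold or more in the second IP was seen for 13.4% of the 2255 genes with HA, 15.6% with V5 and 4.35% with both antibodies, and of the 7 genes HMGN1 and DEK met it with both. None of the 7 was higher by 2-fold or more in the second HA IP, where 1.29% of genes were. The ratios of second to first HA IP of the other 5 genes were 0.690 for HMGB1, 0.834 for HMGB2, 1.11 for HMGB3, 1.39 for HMGN2 and 1.41 for HMGN3. In the V5 pair the ratios were 0.981 for HMGB1, 1.65 for HMGB2, 1.30 for HMGB3, 1.65 for HMGN2 and 2.05 for HMGN3. HMGN3 alone of the 7 was higher by 2-fold or more in the second V5 IP, where 16.2% of genes were, and with TMM scaling it was not. The libraries of a pair differ in lysate number, and the cause of these differences was not tested.

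**Figure D4:**
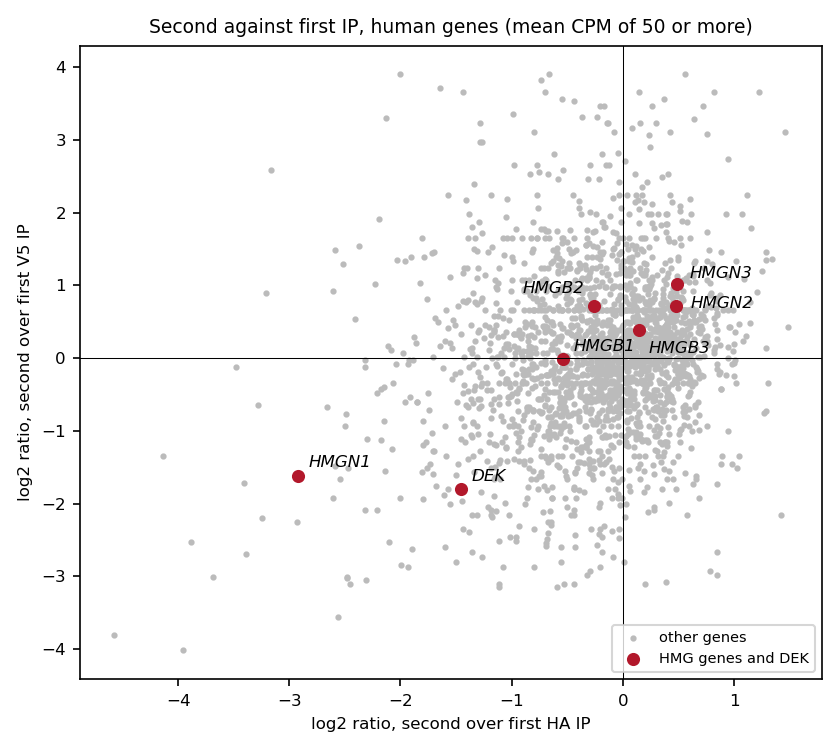
Log2 ratio of second over first HA IP (horizontal axis) and of second over first V5 IP (vertical axis) for 2255 human genes, with HMGB1, HMGB2, HMGB3, HMGN1, HMGN2, HMGN3 and DEK in red. HMGN1 (-2.92 and -1.62) and DEK (-1.46 and -1.80) lie in the lower left, away from the other 5.

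Each gene's pattern over the 6 libraries was set beside that of every other gene with at least 50 CPM, as the root mean square difference of log2 CPM after centring each gene on its own mean. Among the members, HMGB3 and HMGN3 were most alike (0.257), followed by HMGB1 and HMGB3 (0.294), while HMGN1 and DEK differed by 0.830 and HMGN2 and DEK by 1.55. Of 2248 other genes, those nearest to HMGB1 were CETN2 (0.143), TTC1 (0.158) and CCT2 (0.163), and those nearest to HMGB2 were TCEAL4 (0.180), MRPL1 (0.183) and UPF3B (0.184). GPN3 (0.102), MPHOSPH6 (0.124) and CSRP2 (0.127) were nearest to HMGB3. FAM204A (0.137), GMNN (0.142) and SEM1 (0.158) were nearest to HMGN3. HMGN2 was closest to NDUFB4 (0.0678), LAMTOR5 (0.142) and ATP5MD (0.185). The nearest genes lay farther off for DEK and HMGN1, with USP1 (0.520), C18orf21 (0.567) and EIF5 (0.610) nearest to DEK and CA2 (0.417), PRPS1 (0.503) and ATP1B3 (0.505) nearest to HMGN1. These distances rest on 6 libraries that each gene shares, and low counts add to them.

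Counts on pseudogenes bear on HMGB1 most. Of 154 annotated copies of the 10 genes, 29 had a count in any of the 6 libraries. The 48 copies of HMGB1 together had 155 and 201 counts in the HA pair, 21 and 5 in the V5 pair, 10 in the input and 113 in HEK293, which is 20.9 and 23.7%, 23.3 and 8.93%, 20.4% and 15.2% of the counts on HMGB1 itself. HMGB1P5 (ENSG00000132967.9; chromosome 3, 22381819 to 22382929) alone held 110 and 146 of them in the HA pair, 15 and 3 in the V5 pair, 7 in the input and 64 in HEK293. The 36 copies of HMGN2 held 3.43 and 3.46% of the counts on HMGN2 in the HA pair, 2.36 and 3.01% in the V5 pair, 2.10% in the input and 4.00% in HEK293. HMGN4 and DEK have no annotated copy. Adding the copies to each gene changed no call among the 9 genes in the 4 comparisons.

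Other chromatin genes were read against the same shares of called genes, 0.368 to 0.753% of the 6244 genes. Of 27 other HMG box genes, 11 were tested and 0 were called in any of the 4 comparisons. The most abundant of them were TFAM, which packages mitochondrial DNA, at 2.32 in HA against input (SE 1.04, edgeR adjusted p = 0.471), and the transcription factor SOX4, at 0.93 (SE 0.99). The median of the 11 was 0.23, beside 0.38 over all genes.

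Linker histones, which HMGN proteins counteract on the nucleosome, were listed with HMGN5, and 4 of the 8 were tested. HIST1H1C had 432 and 603 CPM in the HA IPs, 295 and 330 CPM in the V5 IPs, 982 CPM in the input and 417 CPM in HEK293, and it fell in V5 against input (log2 difference -2.21, SE 0.59, edgeR adjusted p = 0.0315), the one called gene of these lists there, where 0.753% of all genes were called. Its value was -1.07 in HA against input (SE 0.57, edgeR adjusted p = 0.587). HIST1H1E stood at -0.22 in HA against input (SE 0.53). HMGN5, the largest HMGN protein, had 149 and 209 CPM in the HA IPs, 186 and 208 CPM in the V5 IPs, 14.3 CPM in the input and 152 CPM in HEK293. Its difference of 3.49 in HA against input did not pass (SE 1.05, edgeR adjusted p = 0.105). HMGN5 thus had its lowest level in the input, as HMGB1, HMGB2, HMGB3, HMGN1, HMGN3 and DEK did. For HMGN1 and DEK the counting interval of the input overlapped that of the second V5 IP. Being lowest in the input was not particular to these genes. NPM1 and PTMA from the lists below were lowest there too, while HIST1H1C and MYC were highest there. HMGN5 was chosen for mention after its values were seen.

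Of 20 histone chaperones and acidic chromatin proteins, 19 were tested and 0 were called in any comparison, with 16 above 0 and a median of 1.15 in HA against input. PTMA, prothymosin alpha, stood at 1.12 (SE 0.51, edgeR adjusted p = 0.478) and NPM1, nucleophosmin, at 1.33 (SE 0.52, edgeR adjusted p = 0.338). The SET complex, in which HMGB2 is a subunit, had 4 of its 5 listed partners tested and 0 called in any comparison. SET stood at 1.71 (SE 0.82) and NME1 at -0.55 (SE 0.58) in HA against input. Of 24 structural chromatin proteins, 23 were tested and 0 were called in any comparison, with 22 above 0 and a median of 0.90 in HA against input. The histone variant H2AFZ stood at 0.36 (SE 0.49) and PARP1 at 0.43 (SE 0.58).

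In the list around let-7 and HMGA2, 5 of 8 genes were tested. MYC had 121 and 94.0 CPM in the HA IPs, 163 and 232 CPM in the V5 IPs, 525 CPM in the input and 247 CPM in HEK293, and it fell in HA against input (log2 difference -2.48, SE 0.66, edgeR adjusted p = 0.0311). It was the one called gene of these lists in that comparison, where 0.625% of all genes were called, and 0 were called in HA against HEK293 or HA against V5.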

How the data were processed

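RNA was taken from standard extracts or IPs, with SMART-seq cDNA and Nextera DNA Flex libraries, per the labels' protocols. The values deposited are raw counts per gene, whole numbers, made with featureCounts 1.5.2, paired and without strand (option 0), on a joint human and mouse annotation, per the file headers. Tools in the submitters' processing notes are STAR 2.5.2, SAMtools, Trim Galore and bcl2fastq, with hg38 as human build. No source used here gives the mouse build. Because genes with near-identical copies can share reads, counts on HMGB1, HMGN2 and their pseudogenes are uncertain.

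All 58721 human identifiers matched GENCODE 29. CPM used each library's human counts. Tests used edgeR 4.0.16 (R 4.3.3; quasi-likelihood, two-sided, Benjamini-Hochberg over 6244 genes, threshold 0.05), filterByExpr with a minimum count of 10 and total of 15, TMM factors, and 1 fit of 6 libraries with 2 residual degrees of freedom; the input and HEK293, with 1 library each, were taken to vary as the IPs do. The biological coefficient of variation was 51.2%, and the spread used for each gene was pooled over genes. The procedure was tested on simulated data for HA against input. With a planted change of 16-fold, 50% of the changed genes were called. That share fell to 5.97% at 4-fold and to 0% at 2-fold, with 0 false calls. An absent call therefore does not exclude a change of any of these sizes, 16-fold included. Single libraries were compared as log2 ratios of CPM with a prior count of 2. Alternatives were DESeq2 1.42.0 size factors or Wald test, total counts as scaling, no filter, 50 counts in 2 libraries, and replicate number as a block. Others were only the groups compared, each IP left out, the GC trend removed (lowess), and counts seen in the other line subtracted. The rest were pseudogene counts added, a prior of 0.5, and TMM for single libraries. The rest used scipy 1.17.1, pandas 2.3.3, numpy 2.4.6 and matplotlib 3.10.9 in Python 3.11.15.

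The members and lists were chosen with earlier results of these data known. Named from each list were up to 4 called genes or, if none was called, its 2 most abundant; for patterns, the 3 nearest genes. HMGN5 was named outside this rule.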

Additional observations from a re-analysis of the deposited data

How the results depend on the processing

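Of the 9 tested genes, 1 was called in HA against input. That count was 3 with total human counts (DEK, HMGB1, HMGB2) and with DESeq2's Wald test, 2 with the replicate block (DEK, HMGB1), 0 with the filter of 50 counts in 2 libraries, 0 with the GC trend removed, and 0 to 1 when 1 IP was left out (0 without the first HA IP). DEK lay above 0 in all 14 alternatives and passed in 11, with log2 differences of 2.78 to 4.25 and adjusted p-values of 0.000500 to 0.644. It was 3.73 with the stricter filter (edgeR adjusted p = 0.117). HMGB1 passed with total counts (edgeR adjusted p = 0.00120), DESeq2 (0.0253) and the block (edgeR, 0.0413), and HMGB2 with total counts (edgeR, 0.00470) and DESeq2 (0.0495). In HA against HEK293 the count was 0 in every alternative run. In HA against V5 it was 0, and 0 to 1 when 1 IP was left out (HMGN2 without the first HA IP). In V5 against input it was 0, 2 with total human counts, and 0 to 1 when 1 IP was left out (DEK without the second V5 IP).

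Over all genes, HA against input had 39 calls, 68 with DESeq2 size factors, 104 with total counts, 64 with DESeq2's test, 260 with only the groups compared, and 29 to 140 when 1 IP was left out (140 and 137 without the first or second V5 IP). HA against HEK293 had 23, 53 with total counts (24 higher and 29 lower, against 3 and 20), 39 with DESeq2's test, 48 with only the groups compared, and 26 to 63 when 1 IP was left out (63 without the first HA, 50 and 48 without the first or second V5 IP). HA against V5 had 23, 38 with total counts, 40 with the GC trend removed, and 18 to 117 when 1 IP was left out (59 without the first HA, 52 and 117 without the first or second V5 IP). V5 against input had 47, 72 with size factors, 105 with total counts, 30 with no filter, 7 with the stricter filter, 20 with the GC trend removed (12 higher and 8 lower, against 16 and 31), 71 with only the groups compared, and 76 to 167 when 1 IP was left out (80 and 76 without the first or second HA, 116 and 167 without the first or second V5 IP). Leaving out an IP leaves 1 library in a group, which was assumed to vary like the others. The cause of these changes was not tested. In second against first V5, 0 of 7 genes were higher by 2-fold or more with TMM, against 1. Of 490 alternative values for the 9 genes in 4 comparisons, 32 changed sign, all of values that had not been called.

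HA and V5 IPs share replicate numbers, but per the labels only the first IPs share a lysate. Deviations of the pairs correlated at 0.204 over 2237 genes. With the replicate block, calls over all genes were 51 in HA against input, 28 in HA against HEK293, 24 in HA against V5 and 63 in V5 against input. Depth limits the V5 IPs and the input most: 1 count is worth 7.76 CPM in the first V5 IP, 12.2 CPM in the second and 3.57 CPM in the input.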
